A study of Mus musculus with 16 samples.

Results

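The genes described here are 10 components of the epithelial tight junction in mouse small intestinal organoids: the claudins Cldn2, Cldn3, Cldn4, Cldn7, Cldn12, Cldn15 and Cldn23, occludin (Ocln), the junctional adhesion molecule A (F11r) and zonula occludens 1 (Tjp1). They were taken by gene symbol, with earlier results of these data known, from the 49585 genes of a table of read counts, and all 10 were among the 12559 genes with enough reads to be tested. Organoids, which are epithelial cultures grown from intestinal crypts in Matrigel, came from villin-cre+ Atg16l1 fl/fl mice, called Atg16l1 ΔIEC, which delete the autophagy gene Atg16l1 in cells that express villin, and from villin-cre− Atg16l1 fl/fl mice, called fl/fl. Both genotypes carried the floxed allele, so the controls differed from ΔIEC by the absence of Cre. Each genotype was left untreated or given recombinant mouse IL-22 at 10 ng/ml, and RNA was taken at 24 h. The 16 cultures formed 4 groups of 4. Per the labels, each genotype was represented by 2 organoid lines with 2 cultures per line and treatment; cultures 1 and 2 of a group are the first line and cultures 3 and 4 the second. The number of cultures, 4, is therefore larger than the number of lines, 2. Unless stated otherwise, the tests below had no term for the line. Their p-values measure a spread that mixes differences between lines with differences between cultures of a line. The latter may be technical. On GRCm38, 4 of the genes lie on chromosome 5, Cldn12 at chr5:5489537-5514958, Cldn4 at chr5:134945119-134946934, Cldn3 at chr5:134986214-134987472 and Cldn15 at chr5:136966616-136975858. The others are Cldn2 at chrX:139800828-139811386, Cldn7 at chr11:69964779-69967885, Cldn23 at chr8:35824712-35826559, Ocln at chr13:100496507-100552718, F11r at chr1:171437535-171464603 and Tjp1 at chr7:65296165-65527781.

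Tight junctions seal the space between neighbouring epithelial cells and set which ions and molecules pass between them. Claudins are membrane proteins that meet across this space and form either barriers or charge-selective pores. Claudin-2 and claudin-15 form pores for small cations, and claudin-15 is the main sodium pore of the small intestine. Claudin-3 and claudin-4 are counted among the barrier-forming claudins. Occludin and JAM-A are further membrane proteins of the junction, and ZO-1 is the scaffold that ties claudins to the actin cytoskeleton. IL-22 acts on epithelial cells through STAT3, and claudin-2 is a known IL-22 target in intestinal epithelium.

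Because the results turn on transcript levels, sequence just upstream of the genes' annotated transcript starts was read from RefSeq (build GRCm38.p6). Of the 10 genes 9 had an entry, with 13 annotated starts, and the 250 bases before each start were searched on both strands. Cldn23 had no entry. The only listed start of Tjp1 lay 156537 bases inside the gene span given above, so its window is within the gene. That of Cldn15 lay 1253 bases inside, and 25 bases of its window are in Cldn15 exons. The sequence TATAAA, the core of a TATA box, was found in 1 of the 13 windows, that of Cldn2, with its first base at position -35 counted from the start. It occurred in 12.4% of all 32851 windows of this length. The Cldn2 window, chrX:139800558-139800807 on the plus strand, is shown with TATAAA in capitals. The window of Cldn4, the gene with the highest IL-22 fold change among the 10 in fl/fl organoids, lies on the minus strand at chr5:134946935-134947184 and held neither motif.
Cldn2: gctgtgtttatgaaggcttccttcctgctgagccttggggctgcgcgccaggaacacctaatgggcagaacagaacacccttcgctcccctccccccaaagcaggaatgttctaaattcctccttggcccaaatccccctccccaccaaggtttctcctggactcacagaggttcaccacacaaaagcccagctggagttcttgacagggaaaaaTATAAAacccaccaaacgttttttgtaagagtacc
Cldn4: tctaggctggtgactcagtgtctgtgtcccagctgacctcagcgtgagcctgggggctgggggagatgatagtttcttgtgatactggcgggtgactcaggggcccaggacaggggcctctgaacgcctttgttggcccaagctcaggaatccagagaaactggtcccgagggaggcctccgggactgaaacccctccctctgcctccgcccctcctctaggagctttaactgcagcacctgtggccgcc

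The STAT motif TTCNNNGAA, a palindrome that reads the same on both strands, was present in 3 of the 13 windows, where 7.02% of all windows held it. By gene, it lay before the first listed start of 0 of the 9 genes and before a further start of 2 of them. In Cldn7 it lay at chr11:69965236-69965244 and in Cldn12 at chr5:5514870-5514878, the latter inside the windows of 2 starts. Both matches lie within annotated exons of the same gene's other transcripts. Both are shown with 10 bases on either side and the motif in capitals, since both genes are among those described below as higher with IL-22.
Cldn7: ccccagggacTTCTGAGAAgccgtcgcct
Cldn12: gcctgactggTTCCCTGAAgcctccgggg
These matches describe the letters of the windows and say nothing about binding.

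Gene counts summed to 2135000 to 5574860 per culture. Levels are given as CPM, the read count of a gene relative to the size of its library after TMM scaling. Atg16l1 itself was at 31.6 to 51.8 CPM in fl/fl and at 0.289 to 5.96 CPM in ΔIEC cultures, without overlap. Epithelial markers were present, whereas 8 immune genes summed to at most 19 CPM with Cd3e at 0 in every culture, and 8 stromal and endothelial genes to at most 4.08 CPM with Cdh5 at 0. IL-22–treated ΔIEC culture 1 stood farthest from the other cultures of its group, and results that rest on it are given with and without it.

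**Figure D1:**
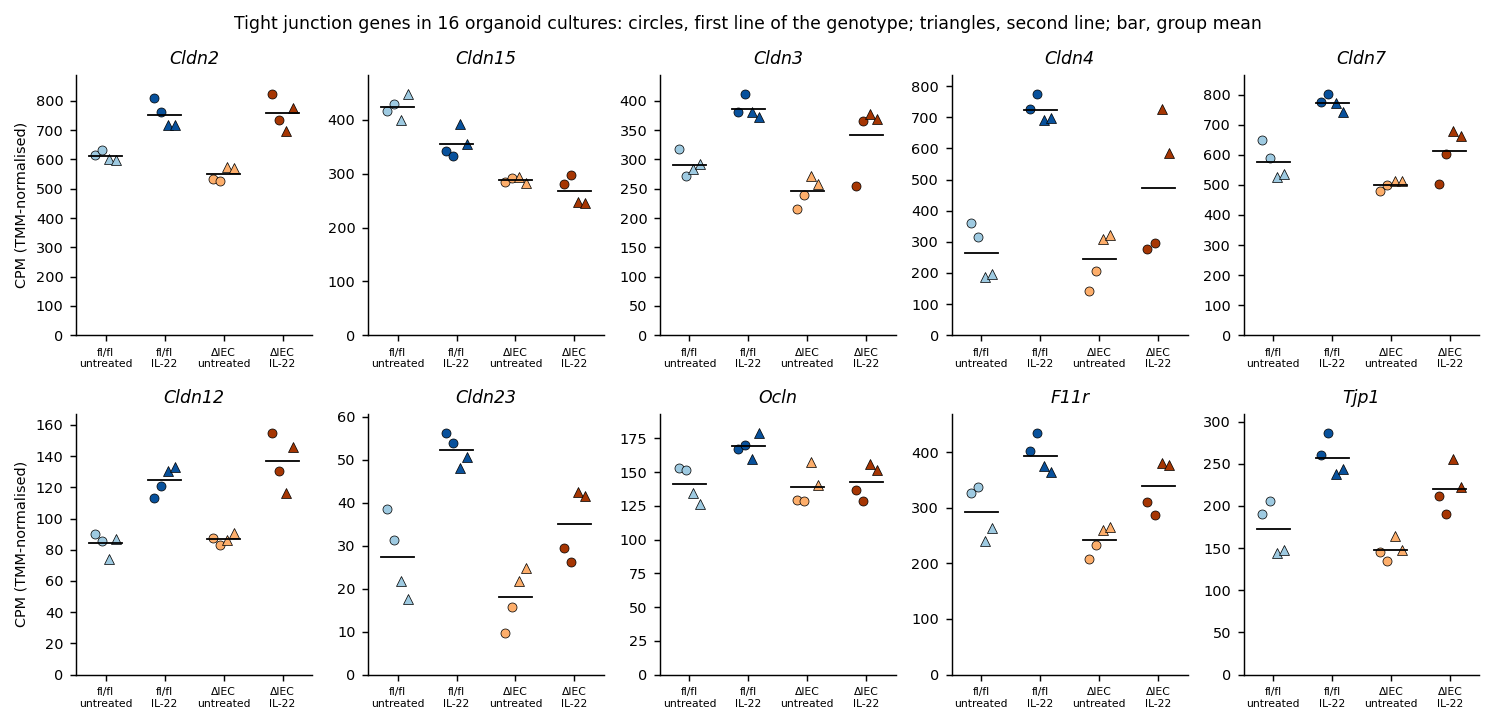
TMM-normalised CPM of the 10 tight junction genes in each of the 16 cultures, with circles for the first organoid line of a genotype, triangles for the second and a bar for the mean of 4. IL-22–treated fl/fl cultures lie above untreated ones for every gene but Cldn15, and Cldn4 shows a gap between lines, 277 and 295 CPM against 727 and 587 CPM in ΔIEC organoids given IL-22.

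Levels between genes were compared only per kb of exon. In untreated fl/fl organoids Cldn7 was highest, at 295 ± 29.1 CPM per kb (SD, n = 4), followed by Cldn3 at 231 ± 15.7 CPM per kb, and neither range over cultures overlapped the next gene's. Cldn15 (199 ± 9.56), Cldn2 (184 ± 4.44), Cldn4 (146 ± 47.0) and F11r (110 ± 17.8 CPM per kb) came next, each with a range that overlapped that of its neighbour in the order. Ocln stood below them at 33.4 ± 3.06 CPM per kb, followed by Tjp1 (22.04 ± 3.92), Cldn12 (19.9 ± 1.67) and Cldn23 (14.8 ± 5.11 CPM per kb), whose neighbouring ranges overlapped. Untreated ΔIEC organoids also had Cldn7 and Cldn3 at the top, but Cldn15, at 136 ± 2.58 CPM per kb, lay below Cldn2, at 166 ± 7.35 CPM per kb, without overlap. Of 18 other claudin and claudin-domain genes in the table only Cldnd1 had enough reads to be tested, and 13 had at most 3 counts in every culture, the floor used here.

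To ask how IL-22 changed junction transcripts in epithelium with intact Atg16l1, treated and untreated fl/fl organoids were compared. The counts measure RNA only, so junction proteins, their location and permeability were not tested here. Of the 10 genes 8 rose past an adjusted p of 0.01 (edgeR quasi-likelihood test, Benjamini-Hochberg over all 12559 genes) and 0 fell, where 10.6% of all tested genes rose and 10.2% fell. Cldn4 changed most, 2.72-fold, followed by Cldn23, Tjp1 and Cldn12, whereas Cldn15 was the single gene with a mean below that of untreated organoids. The median log2 fold change of the 10 genes was 0.43 and that of all tested genes -0.05.

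Of the pore-forming claudins, Cldn2 rose and Cldn15 had a lower mean with IL-22. Cldn2 was at 615, 631, 601 and 599 CPM in untreated fl/fl cultures and at 809, 763, 717 and 717 CPM with IL-22. The lowest treated culture exceeded the highest untreated one, and Cldn2 rose by 0.30 ± 0.07 (SE) on the log2 scale (adjusted p = 0.0024). Cldn15 was at 416, 429, 401 and 449 CPM in untreated and 342, 334, 393 and 356 CPM in treated cultures. All 4 treated cultures lay below the untreated ones, with a log2 fold change of -0.25 ± 0.07 that missed the threshold (adjusted p = 0.0143). With the organoid line as a block it was -0.25 ± 0.06 (adjusted p = 0.00169). The exact permutation test of 4 against 4 cultures gave its smallest possible p, 0.0286, for both genes.

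The claudins with barrier function and Cldn7, which is also found along the lateral membrane, were higher with IL-22. Cldn4 was at 359, 314, 188 and 197 CPM in untreated cultures and at 727, 775, 690.5 and 699 CPM with IL-22. The 2 lines differed before treatment, and the treated cultures of both lay above every untreated one (log2 fold change 1.45 ± 0.28, adjusted p = 6.1e-04). Cldn7 was at 648, 590, 526 and 535 CPM without and 776, 803, 773 and 742 CPM with IL-22, a rise of 0.43 ± 0.09 on the log2 scale (adjusted p = 8.2e-04). Cldn3 ranged from 271 to 318 CPM in untreated and from 372 to 412 CPM in treated cultures, a rise of 0.41 ± 0.10 (adjusted p = 0.0047). An antisense gene, Wbscr25, shares 40 exonic bases (3.18%) with Cldn3, and the strand setting of the counting is not given in the sources used here.

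Cldn12 and Cldn23 were among the least abundant of the genes. Cldn12, a claudin without the usual binding motif for ZO scaffolds, ranged from 73.9 to 90.0 CPM in untreated and from 113 to 133 CPM in treated fl/fl cultures (log2 fold change 0.56 ± 0.09, adjusted p = 8.9e-05). Cldn23 was at 38.6, 31.4, 21.8 and 17.7 CPM in untreated and 56.2, 54.0, 48.1 and 50.6 CPM in treated cultures. As for Cldn4, the lines were apart before treatment and close after it, and the log2 fold change was 0.91 ± 0.22 (adjusted p = 0.0039). Cldn23 counts were low, between 41 and 256 reads over all cultures.

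Outside the claudins, the scaffold gene Tjp1 ranged from 145 to 205 CPM in untreated and from 238 to 286 CPM in treated cultures, a 1.49-fold rise (log2 fold change 0.58 ± 0.11, adjusted p = 5.7e-04). F11r ranged from 240 to 338 CPM and from 364 to 434 CPM, and rose by 0.43 ± 0.11 on the log2 scale (adjusted p = 0.0071). Ocln was at 127 to 153 CPM and 160 to 179 CPM. Its groups did not overlap, yet its log2 fold change of 0.26 ± 0.09 missed the threshold (adjusted p = 0.0279), and with the line as a block it was 0.26 ± 0.07 (adjusted p = 0.0020). Under the block all 10 genes passed, 9 higher and 1 lower, where 30.6% of all tested genes passed in either direction.

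Treated and untreated fl/fl cultures did not overlap for 9 genes that were higher and 1 that was lower, where 15.4% of tested genes were higher and 15.4% lower without overlap. Calls were lost when cultures were left out. Without the second fl/fl line 0 of the 10 genes passed 0.01 by edgeR, although 9 had an unadjusted p under 0.05, 9 had a log2 fold change above 0 and their median was 0.38, and 8.47% of all tested genes were called in this fit. Summing both cultures of a line likewise left 0 past the threshold, 9 had an unadjusted p under 0.05, and 3.91% of all genes were called. Without the first line 6 passed, with 12.7% of all genes called. Without IL-22–treated culture 1 or 2 or without untreated culture 3 or 4, 5 passed, the calls lost being among Cldn2, Cldn3, Cldn23 and F11r. In these fits 17.67%, 15.96%, 17.02% and 16.42% of all genes were called, against 20.8% with all cultures. Over the same cultures the summed CPM of 10 enterocyte markers went from 3781 to 4183 down to 1257 to 1668, with 8 of 10 markers lower and 0 higher. For 8 stem cell markers it went from 1779 to 2204 down to 971 to 1092, with 3 lower, and 2 of 10 Paneth cell markers were higher and 7 of 10 proliferation genes lower. Their part in the claudin differences was not tested, and in bulk RNA fewer cells of a type and less RNA per cell cannot be told apart.

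**Figure D2:**
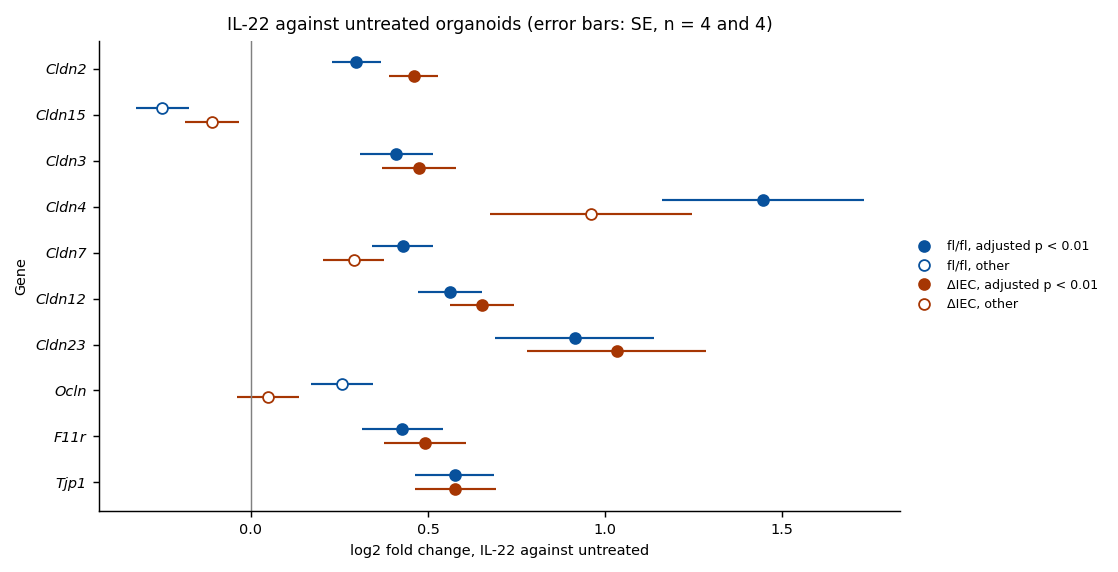
Log2 fold change with IL-22 for each gene in fl/fl (blue) and ΔIEC (brown) organoids, with the SE of the edgeR fit as bars and filled points for an adjusted p under 0.01. Cldn4 has the highest value in fl/fl (1.45) and Cldn15 is the one gene below 0 in both genotypes (-0.25 and -0.11).

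The same question was then asked in Atg16l1 ΔIEC organoids. Cldn2, Cldn3, Cldn12, Cldn23, F11r and Tjp1 rose past the threshold with IL-22, which is 6 of 10, and 0 fell, where 9.83% of all tested genes rose and 7.65% fell. The median log2 fold change of the 10 genes was 0.48, against -0.01 for all tested genes. Cldn4 and Cldn7 had higher means with IL-22 but overlapping cultures, and the log2 fold changes of Ocln and Cldn15 were 0.05 and -0.11.

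Cldn2 was at 532, 527, 573 and 570 CPM in untreated ΔIEC cultures and at 824, 733, 696 and 774 CPM with IL-22, a rise of 0.46 ± 0.07 on the log2 scale (adjusted p = 4.2e-05). Treated ΔIEC and treated fl/fl cultures covered nearly the same range, from 696 to 824 CPM and from 717 to 809 CPM. Cldn15 was at 285, 293, 294 and 283 CPM without and 281, 297, 247 and 246 CPM with IL-22, with a log2 fold change of -0.11 ± 0.08 (adjusted p = 0.311). Its second line lay below the untreated cultures and its first line did not.

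Cldn4 was at 141, 207, 309 and 321 CPM in untreated and at 277, 295, 727 and 587 CPM in treated ΔIEC cultures. The treated cultures of the first line were below the untreated cultures of the second, so the groups overlapped (log2 fold change 0.96 ± 0.28, adjusted p = 0.0156; exact permutation p = 0.171). Within each line both treated cultures exceeded both untreated ones, and with the line as a block the log2 fold change was 0.90 ± 0.11 (adjusted p = 1.1e-07). Without IL-22–treated culture 1 Cldn4 passed the threshold, at 1.15 (adjusted p = 0.0045), as it did without treated culture 2 or without the first ΔIEC line. Cldn7 was at 479, 499, 512 and 512 CPM without and 503, 601, 678 and 662 CPM with IL-22 (0.29 ± 0.09, adjusted p = 0.0174). The block gave 0.28 ± 0.07 for Cldn7 (adjusted p = 0.00105), and without IL-22–treated culture 1 the value was 0.37 (adjusted p = 0.00104). Under the block 8 of the 10 genes passed, all higher, where 25.5% of all tested genes passed in either direction.

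Cldn3 was at 216, 240, 272 and 258 CPM in untreated and 254, 365, 377 and 368 CPM in treated ΔIEC cultures. Treated culture 1 lay among the untreated ones and the other 3 lay above them. The log2 fold change was 0.47 ± 0.10 (adjusted p = 0.0018) with this culture and 0.59 without it. Cldn12 rose from 83.2 to 90.5 CPM to between 117 and 155 CPM (0.65 ± 0.09, adjusted p = 1.8e-05), and this call held under every alternative run, also without either ΔIEC line and after summing both cultures of each line. Cldn23 was at 9.67, 15.7, 21.7 and 24.9 CPM in untreated and 29.6, 26.1, 42.6 and 41.7 CPM in treated cultures, a 2.05-fold rise (1.03 ± 0.25 on the log2 scale, adjusted p = 0.0041).

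Tjp1 ranged from 134 to 164 CPM in untreated and from 190 to 256 CPM in treated ΔIEC cultures and rose by 0.58 ± 0.11 (adjusted p = 6.8e-04). F11r ranged from 208 to 265 CPM and from 287 to 380 CPM and rose by 0.49 ± 0.12 (adjusted p = 0.0032). Ocln stayed within 128 to 157 CPM across both groups, with a log2 fold change of 0.05 ± 0.09 (adjusted p = 0.730).

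Groups did not overlap for 5 of the 10 genes, all higher with IL-22, where 14.1% of tested genes were higher without overlap. Without the first ΔIEC line 3 of the 10 genes passed, without the second 2, and after summing cultures by line 1, Cldn12. The share of all tested genes called in these fits was 9.12%, 7.06% and 4.58%, against 17.5% with all cultures. Leaving out untreated culture 1 left 3 calls (13.6% of all genes), and Cldn23 and F11r also lost theirs without untreated culture 2 or treated culture 3 or 4. Without IL-22–treated culture 1, which stood apart, 8 passed (17.4% of all genes). The summed enterocyte markers went from 3567 to 4277 CPM down to 1207 to 1965 CPM, with 6 of 10 lower, and the summed stem cell markers from 2371 to 2618 CPM down to 1042 to 1367 CPM, with 5 of 8 lower. Of 10 Paneth cell markers 2 were higher, and of 10 proliferation genes 0 were higher and 0 lower. Their part was not tested.

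**Figure D3:**
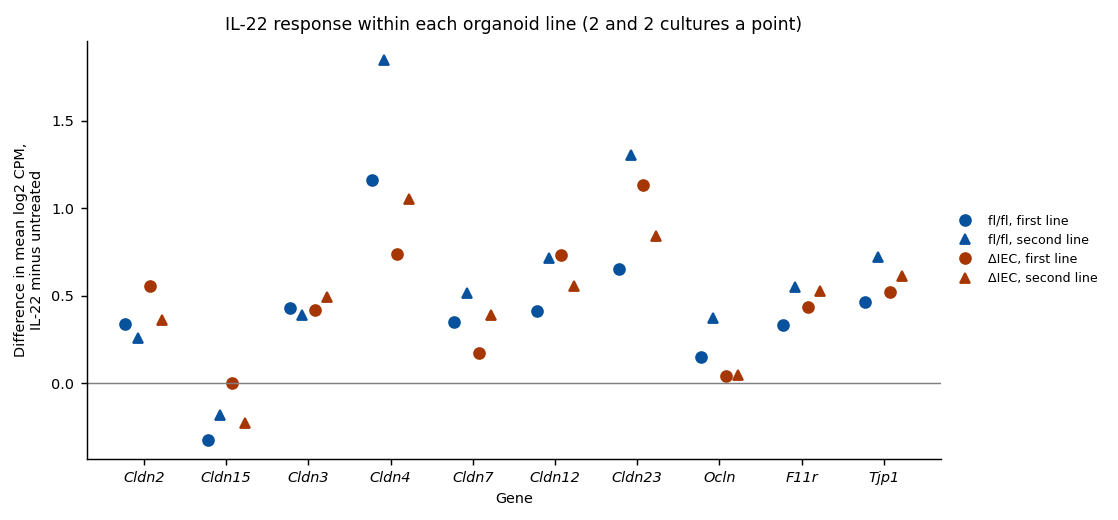
Difference in mean log2 CPM between 2 IL-22–treated and 2 untreated cultures, computed within each of the 4 organoid lines, for each gene. Cldn4 ranges from 0.74 to 1.85 over the lines and Cldn15 from -0.32 to 0.00.

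Within single lines the direction was similar. In the first and second fl/fl line, 9 and 9 of the 10 genes had a higher mean with IL-22, each of them with both treated cultures above both untreated ones. The first and second ΔIEC line had 10 and 9 genes with a higher mean, 8 and 8 of them without overlap. Of all tested genes 28.7% and 30.8% were higher without overlap in the fl/fl lines and 26.8% and 30.2% in the ΔIEC lines. The within-line differences of Cldn3 were 0.43, 0.39, 0.42 and 0.49 on the log2 scale, the narrowest spread among the genes that rose. Those of Cldn4 were 1.16 and 1.85 in the fl/fl lines and 0.74 and 1.05 in the ΔIEC lines. For Ocln they were 0.15 and 0.37 in fl/fl and 0.04 and 0.05 in ΔIEC.

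Whether loss of Atg16l1 altered the IL-22 response was tested by the interaction, that is the IL-22 effect in ΔIEC minus that in fl/fl organoids. Of the 10 genes 0 passed the threshold by edgeR, 0 had an unadjusted p under 0.05, and DESeq2 also gave 0 at both levels. Of all tested genes 0.0159% passed. With the line as a block 0 of the 10 passed and 2 had an unadjusted p under 0.05, as had 1661 of all 12559 genes. The latter count was 1 with limma-voom (1379 of 12559), with no filter (1483 of 25406), without the second ΔIEC line (1045 of 12937) and without the first fl/fl line (998 of 12852). The highest absolute value was that of Cldn4, at -0.49 ± 0.40 on the log2 scale (adjusted p = 0.855), and with the line as a block it was -0.59 ± 0.15 (adjusted p = 0.0435). Ocln followed at -0.21 ± 0.12 (adjusted p = 0.773), and at -0.22 ± 0.10 with the line as a block (adjusted p = 0.296). Cldn2 was at 0.16 ± 0.10 (adjusted p = 0.779). Tjp1, Cldn3 and F11r had differences of 0.00 ± 0.16, 0.06 ± 0.15 and 0.06 ± 0.16, whose sign changed in some of the alternative fits. With SEs between 0.10 and 0.40 the missed threshold does not show that the genotypes responded alike. That 8 genes passed in fl/fl and 6 in ΔIEC organoids is therefore no tested difference between genotypes.

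The genotypes were also compared directly. In untreated organoids Cldn15 was lower in ΔIEC, at 283 to 294 CPM against 401 to 449 CPM in fl/fl (log2 fold change -0.55 ± 0.08, adjusted p = 7.1e-05). It was 1 of the 10 genes, where 5.98% of all tested genes were lower and 3.78% higher. Its values over all alternatives lay between -0.58 and -0.52, and among the alternatives the call was lost only where cultures were summed by line (adjusted p = 0.0407). The log2 fold changes of 9 genes were below 0, with a median of -0.21 against -0.02 for all tested genes. Cldn2 and Cldn7 were lower in every ΔIEC culture but missed the threshold, at -0.15 ± 0.07 (adjusted p = 0.125) and -0.20 ± 0.09 (adjusted p = 0.111). In all, 3 genes were lower without overlap, where 12.6% of tested genes were. Cldn23, at -0.68 ± 0.26 (adjusted p = 0.0665), had overlapping cultures. Without the second fl/fl line 4 genes passed, Cldn15, Cldn23, F11r and Tjp1, and 12.8% of all tested genes in either direction.

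**Figure D4:**
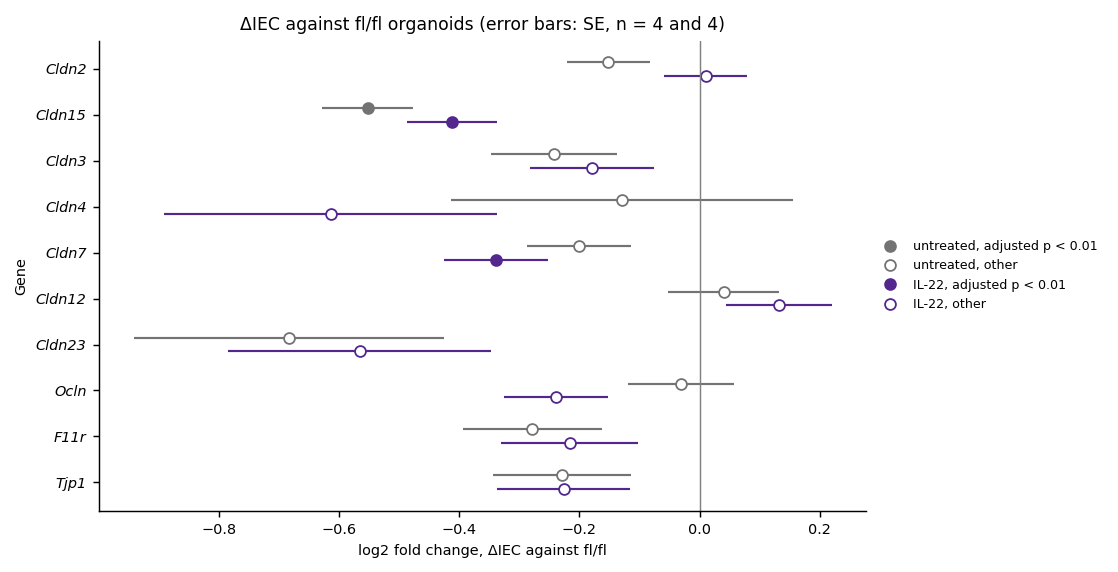
Log2 fold change of ΔIEC against fl/fl organoids, untreated (grey) and IL-22–treated (purple), with the SE of the edgeR fit as bars and filled points for an adjusted p under 0.01. Cldn15 lies below 0 in both (-0.55 and -0.41) and Cldn12 above 0 in both (0.04 and 0.13).

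With IL-22, Cldn15 and Cldn7 were lower in ΔIEC than in fl/fl organoids, 2 of the 10 genes, where 9.84% of all tested genes were lower and 9.91% higher. Cldn15 was at 246 to 297 CPM against 334 to 393 CPM (-0.41 ± 0.08, adjusted p = 4.1e-04), and Cldn7 at 503 to 678 CPM against 742 to 803 CPM (-0.34 ± 0.09, adjusted p = 0.0057). The Cldn7 call rested on single cultures and lines. Its value was -0.26 (adjusted p = 0.0168) without treated ΔIEC culture 1, -0.21 (adjusted p = 0.118) without the first ΔIEC line, and the call was also lost without treated ΔIEC culture 2, without treated fl/fl culture 1, 2 or 3, without either fl/fl line, in a fit of the 2 groups alone and with cultures summed. Cldn15 lost its call without the second ΔIEC line (-0.33, adjusted p = 0.0138) and with cultures summed (adjusted p = 0.0456). Ocln, at -0.24 ± 0.09 (adjusted p = 0.0389), and Cldn23, at -0.57 ± 0.22 (adjusted p = 0.0531), had no overlapping cultures and missed the threshold, and 4 genes in all were lower without overlap, where 14.2% of tested genes were. Cldn4 was at -0.61 ± 0.28 (adjusted p = 0.0950), and without the second ΔIEC line, whose cultures were at 727 and 587 CPM, at -1.36 (adjusted p = 3.3e-04). Cultures of the genotypes overlapped for Cldn2, at 0.01 ± 0.07.

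Each genotype was represented by its own lines, so line and genotype cannot be told apart in these comparisons, which also share their cultures with the IL-22 comparisons above. Of the 10 Paneth cell markers 6 were lower in untreated and 8 in IL-22–treated ΔIEC organoids, with sums of 3193 to 4196 CPM against 5706 to 8192 CPM untreated and 4040 to 4876 CPM against 7397 to 9876 CPM with IL-22. Goblet cell markers were lower for 4 and 5 of 8 genes, and the 10 proliferation genes were higher for 2 untreated and for 10 with IL-22. Of 10 enterocyte markers 1 was higher and 1 lower untreated, and 3 were higher and 0 lower with IL-22. Of 8 stem cell markers 3 were higher and 0 lower untreated, and 3 were higher and 2 lower with IL-22. Their part in the lower Cldn15 and Cldn7 was not tested.

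In the summed level of the 7 claudins, Cldn4 took a greater and Cldn15 a smaller mean share with IL-22. Their summed level was 1206, 1120, 997 and 1036 CPM per kb in untreated fl/fl and 1562, 1610, 1538 and 1504 CPM per kb in treated fl/fl cultures. In ΔIEC organoids it was 815, 885, 992 and 984 CPM per kb without and 1045, 1167, 1424 and 1361 CPM per kb with IL-22. All treated cultures were above the untreated ones of their genotype. Cldn4 went from 13.2 ± 3.20% of this sum to 25.6 ± 0.730% in fl/fl (SD, n = 4) and from 14.4 ± 3.91% to 20.1 ± 6.97% in ΔIEC organoids, where the first line stood at 14.6% and 13.9% and the second at 28.1% and 23.7% after treatment. Cldn15 went from 18.4 ± 1.74% to 10.8 ± 0.997% in fl/fl and from 14.9 ± 1.36% to 10.3 ± 2.32% in ΔIEC organoids. Cldn7 took 25.2% to 28.1% of the sum on average in every group.

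Among the pore-forming pair, the ratio of Cldn2 to Cldn15 per kb was 0.924 ± 0.0480 in untreated fl/fl and 1.22 ± 0.0589 in untreated ΔIEC organoids, and 1.36 ± 0.160 and 1.82 ± 0.181 with IL-22. The lowest treated fl/fl culture, at 1.17, was above the highest untreated one, at 0.958, and the lowest treated ΔIEC culture, at 1.58, above the highest untreated one, at 1.29. These shares and ratios describe the levels and were not tested.

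**Figure D5:**
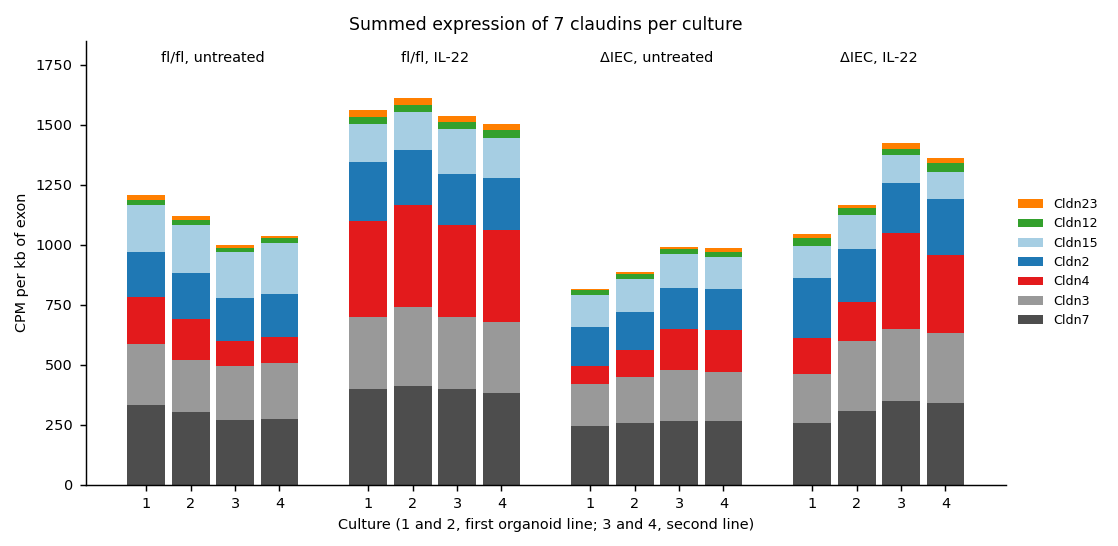
Stacked level of the 7 claudins in each culture, in CPM per kb of exon, with cultures 1 and 2 from the first and 3 and 4 from the second line of a genotype. The bars reach 997 to 1206 in untreated and 1504 to 1610 in IL-22–treated fl/fl cultures, and the Cldn4 share (red) grows from 13.2% to 25.6% on average.

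Across the 16 cultures most of the genes varied together, and these cultures share treatments, libraries and scaling. Pearson's r of log2 CPM was 0.96 for Cldn23 with F11r, 0.959 for F11r with Tjp1 and 0.94 for Cldn4 with Cldn23. Cldn15 stood apart, with r between -0.391 and 0.165 against the other 9 genes. Over all tested genes, the patterns most like Cldn4 were those of Capn5 (0.983), Myo1c (0.981) and Epha2 (0.98), and those most like F11r were Areg (0.979), S100a14 and Emp1 (0.978 each). The leading genes were Nckap1, Tm9sf2 and Mal2 for Cldn2 (0.955 to 0.959), Gm11592, Trip10 and Junb for Cldn3 (0.942 to 0.961), and Zbtb7b, Hs3st1 and Antxr2 for Cldn7 (0.967 to 0.973). For Cldn12 they were Ppt1, Slc39a1 and Mcl1 (0.952 to 0.964), for Cldn23 Gm26880, Areg and Hs3st1 (0.968 to 0.975), and for Tjp1 Vps4b, Paqr4 and S100a10 (0.971 to 0.972). These values describe 16 cultures that fall into 4 groups.

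The 10 genes were set beside 84 further junction genes in 5 lists, of which 58 were tested. With IL-22, 16 rose and 1 fell in fl/fl organoids, with a median log2 fold change of 0.29, and 15 rose and 3 fell in ΔIEC organoids, with a median of 0.24. The background of 20.8% and 17.5% called in either direction stands beside 29.31% and 31.03% of the list. With the line as a block the fl/fl count was 33 (30.6% of all genes called). It was 8 without the second fl/fl line (8.47%) and 26 without IL-22–treated ΔIEC culture 1 (21.9%), and the ΔIEC count was 11 without the first (9.12%) and 5 without the second ΔIEC line (7.06%). For the interaction 0 passed by edgeR.

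Among other tight junction membrane proteins 4 of 8 rose in each genotype, and these were the occludin relative Marveld3 (0.97 ± 0.11, adjusted p = 1.2e-06 in fl/fl and 0.83 ± 0.10, adjusted p = 5.1e-06 in ΔIEC), the JAM family member Igsf5 (0.87 ± 0.12 and 0.90 ± 0.13), the polarity protein Crb3 (0.55 and 0.64) and Lsr, a protein of tricellular junctions (0.46 and 0.43). Of 27 scaffold and polarity genes 5 rose and 1 fell in fl/fl and 4 rose and 3 fell in ΔIEC. These were 22.22% and 25.93% of the list, where 20.8% and 17.5% of all tested genes were called in either direction. The fl/fl share was thus close to that of all genes. Of the scaffold and polarity genes, Arhgef2 and Vasp were among those that rose in both genotypes, with Pard6b and Cgn in fl/fl and Llgl2 in ΔIEC. Pard6b, a member of the Par polarity complex, rose by 0.91 ± 0.17 on the log2 scale in fl/fl (adjusted p = 4.8e-04). Arhgef2, a junction-associated activator of RhoA, rose by 0.99 ± 0.18 in ΔIEC (adjusted p = 2.5e-04). Mylk, the myosin light chain kinase whose activity opens the junction, fell by 0.89 in fl/fl (SE 0.10, adjusted p = 1.4e-06) and by 0.67 in ΔIEC (SE 0.11, adjusted p = 7.5e-05) on the log2 scale. In ΔIEC organoids Prkcz and Amot also fell, by 0.47 (adjusted p = 0.0060) and 0.41 (adjusted p = 0.0042). Of 17 adherens junction and desmosome genes 6 rose in each genotype, among them the desmosomal plakophilin Pkp3 (0.70 ± 0.10 in fl/fl, 0.71 ± 0.11 in ΔIEC), and 1 of 5 genes of EpCAM and its proteases, St14 (0.42 and 0.48). In each genotype the calls were 50% of the membrane list, 35.29% of the adherens junction and desmosome list and 20% of the EpCAM list. The last share was close to that of all tested genes.

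Between genotypes, 3 of the 58 genes were lower in untreated ΔIEC organoids, namely Mylk (-0.55 ± 0.10), Prkcz, an atypical protein kinase C of the polarity complex (-0.46 ± 0.11), and the intestinal cadherin Cdh17 (-0.29 ± 0.07). With IL-22, 5 were lower: Pard6b (-0.72 ± 0.17), Prkcz (-0.63 ± 0.12), the junctional receptor Cxadr (-0.62 ± 0.13), the polarity scaffold Mpp5 (-0.31 ± 0.08) and Cdh17 (-0.26 ± 0.07). These are 5.17% and 8.62% of the list, where 5.98% and 9.84% of all tested genes were lower, so neither share exceeded the background. In both comparisons 0 were higher by edgeR. The untreated count ranged from 1 to 3 when single cultures were left out (4.983% to 11.21% of all genes called in either direction). It was 0 without the first fl/fl line (4.163%). The IL-22 count ranged from 2 to 9 (13.76% to 20.98%) and was 0 without the first ΔIEC line (7.378%).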

How the data were processed

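RNA sequencing of 16 small intestinal organoid cultures was used, in 4 groups taken from the sample labels. Reads had been trimmed with cutadapt and mapped to GRCm38 by TopHat2, and the authors deposited HTSeq counts per gene as whole numbers without normalization. The library kit is a TruSeq RNA v2 kit per the labels and a stranded total RNA kit per the paper's methods, and the versions, strand setting and annotation release are not given in the sources used here. Lines of the table that name no gene (reads outside genes, in several genes or aligned more than once) were left out, and 36.3% to 38.3% of the table was on genes. Gene identifiers without version were matched to GENCODE mouse release 21 (49326 of 49585).

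Genes were filtered with filterByExpr and tested in R 4.3.3 with edgeR 4.0.16 (TMM, quasi-likelihood, a single fit of 4 group means over 16 cultures, two-sided, Benjamini-Hochberg over 12559 genes, adjusted p under 0.01). SE was obtained from the F statistic, as |log2 fold change| / √F. Log2 CPM used a prior count of 2. Single genes were also compared by two-sided exact permutation tests. Depth was 2135000 to 5574860 counts per culture, which limits precision for low genes such as Cldn23, and reads without molecular identifiers make any counting error a lower limit. The same steps were tested on simulated data. The simulated cultures were drawn independently, without differences between lines, so they cannot show how the fit behaves where lines differ.

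Named genes were the 10 members, Atg16l1, up to 6 called genes of the wider lists per comparison by fold change, any gene a count of 5 or fewer rested on, and for each gene called with IL-22 the 3 genes with the highest correlation. The members and lists were chosen with earlier results of these data known. Whether the line pairs cultures was checked by correlating deviations from group means across genes: r was 0.26 to 0.44 within and -0.43 to -0.22 between fl/fl lines, and 0.06 to 0.32 and -0.35 to -0.08 for ΔIEC lines. Deviations from a group mean cancel out within the group. Positive values within lines therefore bring negative values between lines, which are no separate evidence of pairing. The pairing comes from the line number in the labels, and lines are nested in genotype. Alternatives were RLE scaling, no filter, at least 10 counts in every culture, DESeq2 1.42.0, only the groups compared, the line as a replicate block, limma-voom 3.58.1 with duplicateCorrelation, summed cultures, each culture or line left out, and an adjusted p under 0.05.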

Additional observations from a re-analysis of the deposited data

Results flagged for a closer look

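One value stood apart from its group. Cldn3 in IL-22–treated ΔIEC culture 1 was at 254 CPM, whereas the other 3 cultures of the group were at 365 to 377 CPM. The gap took up 0.903 of the range of the group, above the 95% critical value of Dixon's test for 4 samples. This was 1 of 40 groups of 4 tested (10 genes in 4 groups), and chance flags about 1 group in 20. The same culture was the lowest of its group for Cldn7, at 503 CPM, and the highest for Cldn2 and Cldn12, at 824 and 155 CPM. Its sister culture of the first ΔIEC line was at 365 CPM for Cldn3. No cause was tested.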

How the results depend on the processing

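Over all alternatives the 17 called fold changes of the 10 genes gave 473 values, of which 0 reversed direction and 68 missed the threshold; among the 33 uncalled ones 48 values changed sign and 25 passed. Genes called for IL-22 in fl/fl organoids were 5 to 8 when single cultures were left out, where 15.96% to 21.94% of all tested genes were called. They were 0 with cultures summed by line (3.91% of all genes) or without the second fl/fl line (8.47%). For IL-22 in ΔIEC they were 3 to 8 over single cultures (13.18% to 17.88% of all genes) and 1 when summed (4.58%). They were 3 without the first (9.12%) and 2 without the second ΔIEC line (7.06%). Between untreated genotypes they were 2 with no filter (7.242% of all genes), 0 summed (0.07209%) and 4 without the second fl/fl line (12.82%). Between treated genotypes they were 1 to 2 over single cultures (13.76% to 20.98%), 4 with no filter (11.63%) and 4 without the second ΔIEC line (16.39%). They were 1 in the fit of the groups compared (15.65%) and 0 summed (1.355%). They were also 1 without the first ΔIEC (7.378%), first fl/fl (14.96%) or second fl/fl line (14.52%). Organoid line as replicate block changed the calls of Cldn15 and Ocln in fl/fl and of Cldn4 and Cldn7 in ΔIEC and no other call of the 10 genes.

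Wider junction genes called for IL-22 in fl/fl were 15 to 26 over single cultures (15.96% to 21.94% of all tested genes called). They were 33 with the line as a block (30.55%), 31 with limma-voom (27.66%), 5 summed (3.91%) and 8 without the second fl/fl line (8.47%). At 0.05 they were 33, with 4057 of all 12559 genes called. In ΔIEC they were 4 summed (4.58% of all genes), 11 without the first (9.12%) and 5 without the second ΔIEC line (7.06%). Between untreated genotypes they were 1 to 3 over single cultures (4.983% to 11.21% of all genes). They were 1 in the fit of the groups compared (9.38%), with limma-voom (6.187%) or without the first (3.456%) or second ΔIEC line (5.318%). They were 0 summed (0.07209%) or without the first fl/fl line (4.163%). Without the second fl/fl line they were 6 (12.82%), and 6 at 0.05 (2559 of all 12559 genes). Between treated genotypes they were 2 to 9 over single cultures (13.76% to 20.98% of all genes) and 8 with DESeq2 (17.44%). They were 0 summed (1.355%) or without the first ΔIEC line (7.378%) and 9 without the second (16.39%). At 0.05 they were 12, with 4168 of all 12559 genes called. Summing lowers the number of samples and leaving out a line lowers it too; other causes were not tested.

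Sign changes concerned fold changes that missed the threshold. For the interaction, Tjp1 was at -0.018 with RLE, -6.5e-05 with at least 10 counts in every culture, -0.019 with DESeq2, -0.022 with the block, -0.012 with limma-voom, -0.010 summed, -0.10 without the second ΔIEC line, -0.17 without the first fl/fl line and -0.095 to 0.073 over single cultures. Without the second ΔIEC line Cldn3 was at -0.012 and F11r at -0.041, without the first fl/fl line Cldn12 at -0.076, Cldn23 at -0.33 and F11r at -0.082, and without the first ΔIEC line Cldn23 at -0.058. Over single cultures Cldn23 ranged from -0.12 to 0.30 and F11r from -0.016 to 0.14. Between untreated genotypes Cldn4 was at 0.24 and Ocln at 0.070 without the first ΔIEC line, and Cldn4 at 0.33, Ocln at 0.086 and Tjp1 at 0.0090 without the first fl/fl line, while Cldn12 was at -0.015 without the second. Over single cultures Cldn4 ranged from -0.29 to 0.066, Cldn12 from -0.010 to 0.072 and Ocln from -0.10 to 0.0091. Between treated genotypes Cldn2 was at -0.0062 with RLE, -0.0060 with at least 10 counts, -0.0031 with DESeq2, -0.037 without the first ΔIEC line, -0.055 without the second fl/fl line and -0.032 to 0.049 over single cultures.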
